A study of Mus musculus with 6 samples.

Results

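The small leucine-rich proteoglycans are secreted matrix proteins, and 9 of their genes (Fmod, Dcn, Bgn, Lum, Ogn, Aspn, Prelp, Omd and Podn) were followed here among the 27263 genes in the files. They were taken by symbol, all 9 were found, and all 9 had a mean of at least 1 FPKM, the minimum set for testing. FPKM divides the fragments of a gene by its exon length in kilobases and by the scaled total of its library. The cells were primary bone marrow stromal cells of C57BL/6 mice, and every group shared that strain, the sort of marrow cells for Sca-1+ CD29+ CD45− CD11b−, and culture in α-MEM with 10% serum. In 3 libraries the cells had received rGCA at 50 nM for 3 days, and in 3 they had received PBS for the same time. The labels do not spell out GCA. It is read here, from knowledge of the study, as grancalcin, which binds calcium and is made by neutrophils and macrophages, with rGCA as the recombinant protein. The labels leave unsaid whether the 3 replicates were separate mice, cultures or aliquots. The p-values therefore cover the spread among these libraries alone, and that spread may be technical.

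Small leucine-rich proteoglycans share a core of leucine-rich repeats that folds into a curved solenoid, and most carry chondroitin, dermatan or keratan sulfate chains. Many bind fibrillar collagen and tune how thick and how regularly spaced its fibrils become, and several also bind growth factors or cell surface receptors. In bone and its stroma biglycan and decorin are abundant matrix components, mice without biglycan have low bone mass, and osteomodulin is made by osteoblasts.

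Library totals behind the FPKM values ran from 17543509 to 18645932 fragments, a 1.06-fold range. Fragments worked back from the values and summed over genes exceeded the total in every library, at 18929244 (GCA replicate 2) to 19943239 (GCA replicate 3). Why they did is not known here. Correlations of log values, across genes, which are not independent replicates, were 0.989 to 0.993 within GCA, 0.992 to 0.994 within PBS and 0.981 to 0.985 between groups. Of 11984 genes tested, 2151 (17.9%) passed the threshold of an adjusted p under 0.05 (limma), 1380 of them (11.5%) higher and 771 (6.43%) lower in GCA. The median log2 fold change of all tested genes was 0.01. Macrophage markers were detected in all 6 libraries despite the sort: all 20 listed were tested, 10 rose and 1 fell in GCA, and their summed level was 18453 to 19599 FPKM in GCA and 20665 to 22986 FPKM in PBS. None was at 0 in all libraries. Ptprc, which encodes CD45, averaged 13.4 ± 0.89 FPKM in GCA and 12.6 ± 0.59 FPKM in PBS, and Itgam, which encodes CD11b, 30.5 ± 9.0 FPKM in GCA and 39.3 ± 3.35 FPKM in PBS (SD, n = 3 each). Cd68, a lysosomal protein of macrophages, averaged 944 ± 105 FPKM in GCA and 614 ± 13.4 FPKM in PBS, and with Laptm5 and Mrc1 gave the smallest p among those that rose. The one that fell was Lyz2, at 8879 ± 806 FPKM in GCA and 13518 ± 814 FPKM in PBS (adjusted p = 0.00241, limma, and 0.438 after quantile normalization). Without Lyz2, the markers summed to 9908 to 10395 FPKM in GCA and 8039 to 8946 FPKM in PBS, so the direction of the sum turned. This sum was chosen after seeing the data. Both macrophage sums lay above that of the 20 stromal markers listed, Col1a1 among them, in every library. The stromal sum was 2631 to 2829 FPKM in GCA and 2986 to 3233 FPKM in PBS. Sums over different genes do not give shares of cells. The part of macrophages in the results on the proteoglycans was not tested. In bulk samples of this kind, fewer cells of a type and less RNA per cell cannot be told apart.

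The genes lie in 3 clusters and at 2 other places (GRCm38, GENCODE M21). Prelp and Fmod lie with Optc within 151 kb on chromosome 1, Dcn and Lum with Kera and Epyc within 203 kb on chromosome 10, and Aspn, Omd and Ogn with Ecm2 within 120 kb on chromosome 13. Bgn is on chromosome X and Podn on chromosome 4. The 250 bases before the annotated start of 3 genes are shown for the member that passed the test (Fmod) and the most abundant ones (Bgn and Ogn). They are from RefSeq on GRCm38.p6, which had entries for 7 of the 9 genes. Capitals mark matches, on either strand, to motifs known from many promoters: GGGCGG, the GC box; TGANTCA, an AP-1 site; CANNTG, an E-box; CCAAT, the box of that name; and TATAAA, which is spelled here once and called the TATA box from here on. Overlapping matches are merged.
Fmod, chr1:134037004-134037253, plus strand: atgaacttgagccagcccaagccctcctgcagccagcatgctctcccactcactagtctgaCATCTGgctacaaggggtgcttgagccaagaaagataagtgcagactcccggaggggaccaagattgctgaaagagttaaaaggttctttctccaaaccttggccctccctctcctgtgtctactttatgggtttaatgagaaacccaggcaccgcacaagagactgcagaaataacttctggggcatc
Bgn, chrX:73483351-73483600, plus strand: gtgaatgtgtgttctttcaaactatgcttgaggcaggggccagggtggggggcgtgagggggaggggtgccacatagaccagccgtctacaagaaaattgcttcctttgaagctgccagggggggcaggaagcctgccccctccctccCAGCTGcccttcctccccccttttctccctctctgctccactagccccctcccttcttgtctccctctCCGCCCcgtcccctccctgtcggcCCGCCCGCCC
Ogn, chr13:49607765-49608014, plus strand: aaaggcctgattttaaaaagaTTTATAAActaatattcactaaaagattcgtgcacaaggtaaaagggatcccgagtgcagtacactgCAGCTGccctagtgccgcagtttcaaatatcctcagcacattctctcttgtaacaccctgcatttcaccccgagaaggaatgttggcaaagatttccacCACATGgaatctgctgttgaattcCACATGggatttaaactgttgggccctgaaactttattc

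The 3 windows differ in base composition, at 51.2% G + C for Fmod, 64.4% for Bgn and 42% for Ogn, where the median of 27025 genes was 52%. Bgn has 3 GC box matches, whose first bases lie 34, 10 and 6 bases before the start, and the pair nearest the start overlap by sharing letters. Ogn has 2 overlapping TATA box matches 229 and 227 bases before the start and 3 E-box matches. Fmod has an E-box match 189 bases before the start and none of the other motifs. Among the 7 genes with a window, TATA box matches were in Ogn and Aspn, GC box matches in Bgn and Podn, CCAAT box matches in Aspn and Prelp, E-box matches in 5 and an AP-1 match in 0. The shares of all windows with a match were 12.97% for the TATA box, 32.9% for the GC box, 6.87% for the AP-1 site, 66.0% for the E-box and 34.5% for the CCAAT box. A match describes letters in these windows and no more.

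Of the 9 members, 1 passed the test. Fmod was higher in GCA, against 17.9% of all tested genes called in either direction and 11.5% called higher. The groups did not overlap for 2 of the 9 (Fmod, higher, and Bgn, lower), where 38.5% of all tested genes had such groups. Neither count lies above its share over all tested genes. Of the log2 fold changes, 6 were positive and 3 negative, with a median of 0.05. The change of Fmod was larger in size than that of 88.3% of tested genes.

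**Figure D1:**
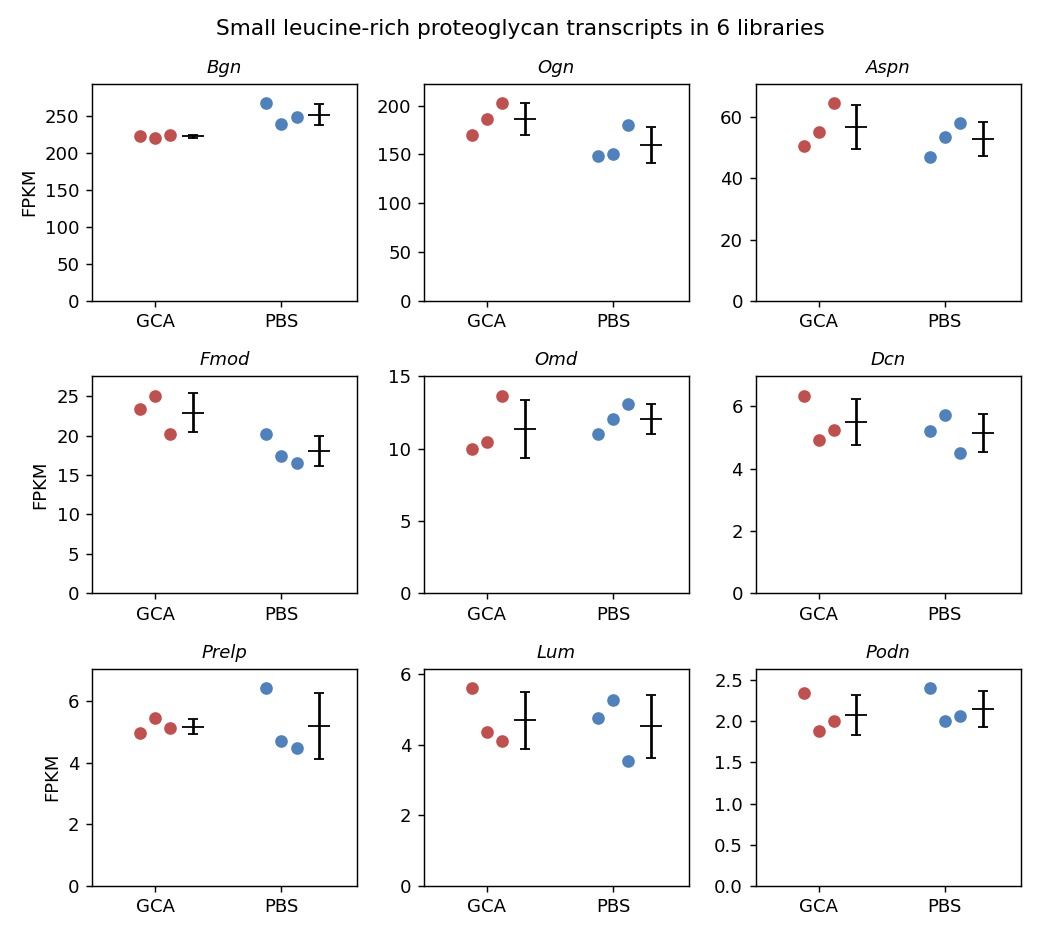
Level of each member in FPKM (vertical axis, starting at 0) in the 3 GCA libraries (red) and the 3 PBS libraries (blue), with the mean and SD of each group beside the points. Only Fmod and Bgn have groups that do not overlap, with Fmod higher and Bgn lower in GCA.

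Fmod (ENSMUSG00000041559, chr1:134037254-134048277, plus strand) encodes fibromodulin, a keratan sulfate proteoglycan that binds collagen fibrils and, in tendon, steers their growth and cross-linking. Its level was 23.4, 25.04 and 20.2 FPKM in GCA replicates 1 to 3 and 20.1, 17.4 and 16.5 FPKM in PBS replicates 1 to 3. The groups did not overlap, but the lowest GCA value (1248 fragments) and the highest PBS value (1214 fragments) almost met. The means were 22.9 ± 2.44 FPKM in GCA and 18.0 ± 1.89 FPKM in PBS (SD, n = 3 each), a 1.27-fold ratio. The log2 fold change on the log2(FPKM + 1) scale was 0.33 (SE 0.094, 95% interval 0.11 to 0.55, adjusted p = 0.0480, limma), so Fmod rose in GCA by a margin just past the threshold. The call ended without GCA replicate 1 (adjusted p = 0.132), GCA replicate 2 (0.112), PBS replicate 2 (0.137) or PBS replicate 3 (0.143). It also ended after quantile normalization (0.0736), after median centring (0.0597), with a filter of 0.1 FPKM (0.0913), with no filter (0.152) and without trend and robust moderation (0.0668), and the log2 fold change stayed between 0.27 and 0.41 over the 18 alternatives run.

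Bgn (ENSMUSG00000031375, chrX:73483602-73495933, plus strand) encodes biglycan, which carries chondroitin or dermatan sulfate chains, binds collagen and, once released, acts on Toll-like receptors. It was the most abundant member, at rank 157 of the 27263 genes by mean FPKM. Its level was 222.5, 220.6 and 224.7 FPKM in GCA replicates 1 to 3 and 267.3, 239.7 and 248.3 FPKM in PBS replicates 1 to 3. Every GCA library lay below every PBS library, and the GCA values spread less, with a coefficient of variation of 0.93% in GCA and 5.61% in PBS. The means were 222.6 ± 2.07 FPKM in GCA and 251.8 ± 14.1 FPKM in PBS (SD, n = 3 each), a ratio of 0.884. The log2 fold change was −0.18 (SE 0.0516, 95% interval −0.29 to −0.06), and the adjusted p of 0.0509 (limma) missed the threshold. In 4 of 18 alternatives, among them limma-voom on recovered fragments (adjusted p = 0.0266) and median centring (0.0382), it passed.

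The other chondroitin or dermatan sulfate proteoglycan of this class is decorin, from Dcn (ENSMUSG00000019929, chr10:97479609-97518143, plus strand), which binds collagen and TGF-β and is a ligand of several receptor tyrosine kinases. Dcn had 6.33, 4.92 and 5.25 FPKM in GCA and 5.21, 5.71 and 4.50 FPKM in PBS. The groups overlapped, and GCA replicate 1 was the highest of the 6 libraries. The log2 fold change was 0.08 (SE 0.101, adjusted p = 0.619, limma), and the interval left room for 0.901-fold to 1.24-fold. Such fold limits, here and below, are ratios of FPKM + 1, which makes them narrower than ratios of FPKM for low members. Aspn (ENSMUSG00000021388, chr13:49544443-49567565, plus strand) encodes asporin, a relative of decorin with an aspartate-rich start and no glycosaminoglycan chain that binds collagen and TGF-β. Its level was 50.5, 55.1 and 64.6 FPKM in GCA and 47.0, 53.7 and 58.1 FPKM in PBS. These groups overlapped as well, and the adjusted p was 0.571 (log2 fold change 0.10, SE 0.106, limma), with an interval of 0.901-fold to 1.27-fold.

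Dcn and Bgn are the closest pair of the 9 in coding sequence, with 66.1% identity over 1045 aligned bases, and the stretch around their longest shared run is shown. Capitals mark the shared run of 17 bases, and positions count from the first base of the start codon.
Dcn, coding bases 778 to 854: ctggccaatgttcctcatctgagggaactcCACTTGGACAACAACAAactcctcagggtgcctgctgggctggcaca
Bgn, coding bases 820 to 896: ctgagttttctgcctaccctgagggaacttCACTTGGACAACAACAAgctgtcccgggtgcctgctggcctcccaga
The lowest identity among the 36 pairs was 52.8%, for Aspn and Prelp. The longest shared run was 19 bases in coding sequence (Omd and Podn) and 50 bases over whole transcripts (Bgn and Podn). All of these are shorter than the 150-base reads. The authors' way of assigning reads that could come from more than 1 gene is not known here.

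Ogn (ENSMUSG00000021390, chr13:49608046-49624501, plus strand) encodes osteoglycin, also called mimecan, a proteoglycan first isolated from bone. It was the second most abundant member, at rank 220 of all genes. Its level was 169.4, 186.1 and 202.3 FPKM in GCA replicates 1 to 3 and 147.9, 149.9 and 180.5 FPKM in PBS replicates 1 to 3. The groups overlapped through PBS replicate 3, which lay above GCA replicate 1. The means were 185.9 ± 16.5 FPKM in GCA and 159.4 ± 18.3 FPKM in PBS (SD, n = 3 each), a 1.17-fold ratio. With a log2 fold change of 0.22 (SE 0.0933, 95% interval 0.01 to 0.44) Ogn had an adjusted p of 0.143 (limma). Without PBS replicate 3 the log2 fold change was 0.31 and the adjusted p 0.0490, where the 18 alternatives gave 0.0280 to 0.328.

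**Figure D2:**
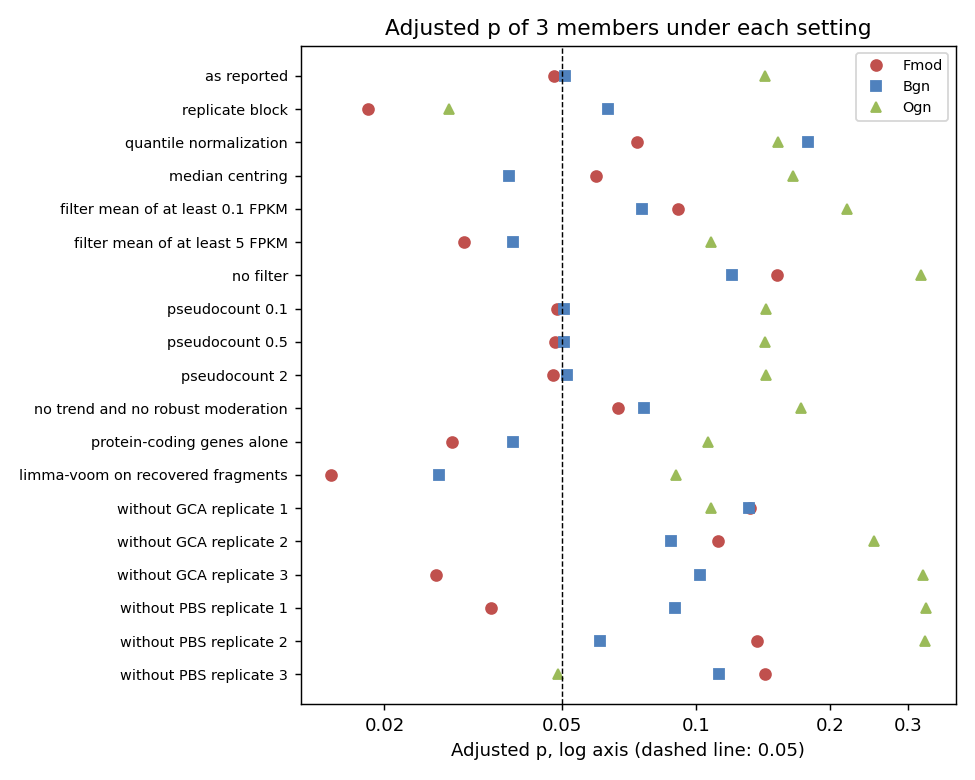
Adjusted p of Fmod, Bgn and Ogn (horizontal log axis) under each alternative (1 row each), with a dashed line at 0.05. Fmod lies left of the line in 9 of 18 alternatives, Bgn in 4 and Ogn in 2.

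Lum (ENSMUSG00000036446, chr10:97565128-97572703, plus strand) encodes lumican, a keratan sulfate proteoglycan that sets fibril spacing in the cornea. Its level was 5.604, 4.35 and 4.12 FPKM in GCA and 4.75, 5.29 and 3.53 FPKM in PBS. The groups overlapped, with GCA replicate 1 the highest and PBS replicate 3 the lowest library. The log2 fold change of 0.05 (SE 0.142) had an adjusted p of 0.851 (limma), and the interval of 0.820-fold to 1.30-fold was the widest of the 9. Prelp (ENSMUSG00000041577, chr1:133910304-133921414, minus strand) encodes a proline- and arginine-rich member that binds collagen and, through its basic start, heparan sulfate. It had 4.96, 5.44 and 5.12 FPKM in GCA and 6.42, 4.71 and 4.47 FPKM in PBS. PBS replicate 1 was the highest library and the other PBS libraries lay below all GCA libraries, so the group means almost matched, at 5.17 ± 0.25 FPKM in GCA and 5.20 ± 1.06 FPKM in PBS (SD, n = 3 each, adjusted p = 0.978, limma, interval 0.838-fold to 1.204-fold).

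Omd (ENSMUSG00000048368, chr13:49582462-49592822, plus strand) encodes osteomodulin, also called osteoadherin, a keratan sulfate proteoglycan of bone made by osteoblasts. Its level was 9.96, 10.4 and 13.6 FPKM in GCA and 11.0, 12.0 and 13.04 FPKM in PBS. GCA libraries were both the lowest and the highest of the 6, and the log2 fold change was −0.09 (SE 0.114, adjusted p = 0.649, limma, interval 0.783-fold to 1.13-fold). Podn (ENSMUSG00000028600, chr4:108014791-108096445, minus strand) encodes podocan, which binds collagen I and belongs to a more distant class of the family. It was the least abundant member, with 2.35, 1.88 and 2.01 FPKM in GCA and 2.40, 2.00 and 2.06 FPKM in PBS. The groups overlapped almost wholly (log2 fold change −0.04, SE 0.0865, adjusted p = 0.817, limma, interval 0.850-fold to 1.12-fold).

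Counting error weighs most on the members of low level. Podn rested on 141 to 187 fragments per library and Lum on 154 to 245, where the exact Poisson 95% interval of the lowest library was 119 to 166 for Podn and 131 to 180 for Lum. Prelp had 288 to 423 fragments, Omd 400 to 572, Dcn 468 to 660, Fmod 974 to 1452, Aspn 2016 to 2834, Ogn 6916 to 9681 and Bgn 23603 to 29716. These intervals cover counting error only. On other genes that overlap the members, the antisense gene Gm15851 shares 350 exon bases (9.68%) with Prelp and had 0 FPKM in GCA and 0.028 FPKM in PBS. Cenpp runs opposite to the chromosome 13 cluster and shares 7 exon bases with Aspn and 0 with Ogn and Omd, at 0.764 FPKM in GCA and 0.618 FPKM in PBS. Scp2 overlaps Podn on the same strand, with 0 shared exon bases, at 51.3 FPKM in GCA and 44.8 FPKM in PBS. Whether counting used strand is not known here, so reads in shared bases cannot be told apart.

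In level the order in GCA was Bgn, Ogn, Aspn, Fmod, Omd, Dcn, Prelp, Lum and Podn. The order in PBS was the same but for Prelp, which stood above Dcn. Neighbours in these orders had ranges over libraries that did not overlap, except among Dcn, Prelp and Lum. FPKM divides by the union of all annotated exons, which for Dcn (5838 bases) was 3.32 times the transcript with the longest coding sequence (1758 bases) and for Bgn 2.52 times (6099 and 2419 bases). Per kilobase of that transcript, a scale chosen after seeing the data, Dcn averaged 18.3 ± 2.45 in GCA and 17.1 ± 2.02 in PBS and moved above Omd, at 11.3 ± 2.00 in GCA and 12.0 ± 1.02 in PBS. Bgn then averaged 561 ± 5.22 in GCA and 635 ± 35.6 in PBS, and its first place was unchanged. The length does not touch the ratio of FPKM between groups of a single gene. It does weigh on ratios of FPKM + 1 for low genes, and on sums and shares over genes.

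Added together, the 9 transcripts summed to 495, 514 and 542 FPKM in GCA and 512, 490 and 531 FPKM in PBS, so the sums overlapped. On the FPKM scale, the composition of the sum differed more than its size. Bgn made up 45.0%, 42.9% and 41.5% of it in GCA replicates 1 to 3 and 52.2%, 48.9% and 46.8% in PBS replicates 1 to 3. Ogn made up 34.2%, 36.2% and 37.3% in GCA and 28.9%, 30.6% and 34.0% in PBS. For both genes the groups did not overlap, with the share of Bgn lower and that of Ogn higher in GCA. Fmod was 4.45 ± 0.62% of the sum in GCA and 3.53 ± 0.41% in PBS, and Aspn 10.9 ± 0.88% in GCA and 10.4 ± 1.02% in PBS (SD, n = 3 each), and both overlapped. Shares of a sum depend on each other, and the Bgn and Ogn shares were singled out after their values were seen, so no test is given. Sums and shares also rest on the exon-union lengths, which weigh Bgn and Dcn less than the transcript lengths do. Sums per kilobase of transcript are not given here.

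**Figure D3:**
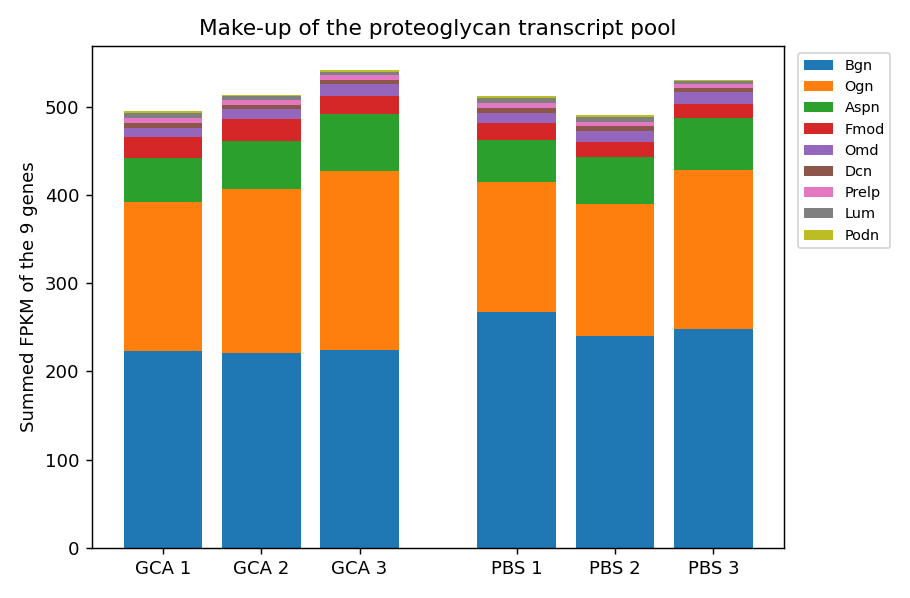
Stacked FPKM of the 9 members (vertical axis, starting at 0) in the 3 GCA libraries (left) and the 3 PBS libraries (right), 1 colour per gene with Bgn at the bottom. The bars reach 495 to 542 FPKM in GCA and 490 to 531 FPKM in PBS, and the Bgn segment is shorter in every GCA library (220.6 to 224.7 FPKM) than in any PBS library (239.7 to 267.3 FPKM).

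Neighbouring genes were compared by the log2 ratio of their FPKM + 1 values in each library, with an exact two-sided permutation test over libraries, whose smallest possible p with 3 against 3 is 0.1, and adjustment over 5 pairs. The Fmod to Prelp ratio was 1.95 ± 0.13 in GCA and 1.63 ± 0.10 in PBS (log2, SD, n = 3 each), a difference of 0.32. The Ogn to Omd ratio was 3.93 ± 0.12 in GCA and 3.62 ± 0.08 in PBS, a difference of 0.31, and the Aspn to Omd ratio was 2.23 ± 0.07 in GCA and 2.05 ± 0.04 in PBS, a difference of 0.18. In these 3 pairs the groups did not overlap and the exact permutation p was 0.1, the smallest the design can give, or 0.167 after adjustment. The Ogn to Aspn ratio differed by 0.13 (exact permutation p = 0.2, adjusted 0.25) and the Dcn to Lum ratio by 0.03 (exact permutation p = 0.5, adjusted 0.5), both with overlapping groups. None of the 5 differences passed 0.05, which this design could not reach.

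Dcn and Lum varied together between libraries of 1 group. Both were highest in GCA replicate 1 within GCA and in PBS replicate 2 within PBS, and lowest of all in PBS replicate 3. Ogn, Aspn and Omd, the neighbours on chromosome 13, were each highest in GCA replicate 3 within GCA and in PBS replicate 3 within PBS. As a measure of likeness over the 6 libraries, the root mean square difference between log2(FPKM + 1) profiles, each centred on its own mean, was smallest of the 36 pairs for Dcn and Lum (0.0773) and next for Ogn and Aspn (0.0896), both pairs within 1 cluster. After them came a pair on different chromosomes, Bgn and Podn (0.0949), and then Aspn and Omd (0.101). The measure is small for any 2 flat profiles. Bgn and Podn varied least of the 9, with a root mean square of 0.0993 and 0.0872 for their own centred profiles. Their difference was about as large, so it does not show likeness. The profiles of Dcn (0.131) and Lum (0.183) varied more than they differed. The other pairs within a cluster were farther apart, at 0.175 for Ogn and Omd and 0.188 for Fmod and Prelp, and the largest value was that of Fmod and Omd (0.330). The points share library and depth, and no test was made.

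**Figure D4:**
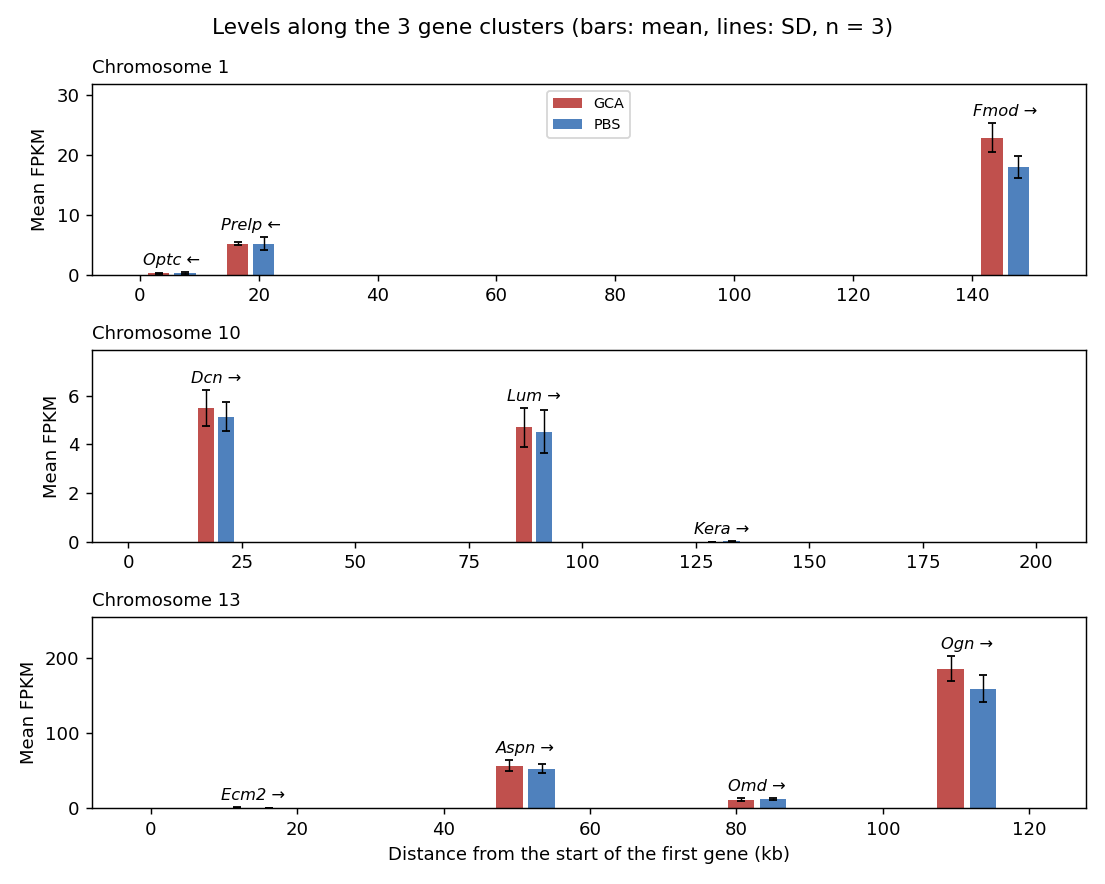
Mean FPKM (vertical axes, starting at 0, SD lines, n = 3) of protein-coding family genes placed by their distance in kb from the start of the first gene of each cluster (horizontal axes), with GCA (red) left of PBS (blue) and an arrow for the strand. The highest gene is Fmod on chromosome 1, Dcn on chromosome 10 and Ogn on chromosome 13, and Optc, Kera and Ecm2 lie below 1 FPKM in both groups.

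By the same measure over 10821 tested protein-coding genes, the 3 nearest to Fmod were Atp6v1g2 (0.0330), Eml2 (0.0587) and Nfxl1 (0.0590). The profile includes the difference between GCA and PBS, so the nearest genes resemble the member in that difference by choice, and no test of it is given for them. Eml2 averaged 7.05 ± 0.69 FPKM in GCA and 5.44 ± 0.40 FPKM in PBS, and Nfxl1 15.4 ± 0.69 FPKM in GCA and 12.1 ± 1.04 FPKM in PBS (SD, n = 3 each). Nearest to Bgn were Zfp521 (0.0169), Sp4 (0.0179) and Golgb1 (0.0189). Ogn had Ccdc14 (0.0404), Efna2 (0.0449) and Gins4 (0.0576), Aspn had Bloc1s2 (0.0227), Ccdc51 (0.0294) and Zc4h2 (0.0309), and Omd had Ctf1 (0.0305), Med18 (0.0306) and Gpx7 (0.0400). For Lum the second nearest of all genes was Dcn (0.0773), after Clcf1 (0.0703) and before Pcyox1l (0.0778). Dcn itself had Pcyox1l (0.0363) and Mrpl55 (0.0471) among its 3 nearest. Prelp was nearest to Ankrd29 (0.0466), Agt (0.0612) and Tle2 (0.0615), and Podn to Golga4 (0.0259), Bach1 (0.0282) and Ogfr (0.0299).

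Of 9 further genes of the family, 8 were in the files and 2 reached the filter. Tsku, which encodes tsukushi, an inhibitor of BMP and other signals, fell to 10.2 ± 0.69 FPKM in GCA, against 14.3 ± 0.91 FPKM in PBS (SD, n = 3 each, log2 fold change −0.44, adjusted p = 0.00373, limma). The groups did not overlap, and the call held without each library in turn. Podnl1, a relative of podocan, had 12.7 ± 1.502 FPKM in GCA and 12.5 ± 0.60 FPKM in PBS (adjusted p = 0.882, limma). Kera, Optc, Ecm2, Chad, Chadl and Nyx lay below the filter, the highest being Ecm2 at 0.896 FPKM in GCA and 0.917 FPKM in PBS. Epyc was not analysed here.

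Among the fibrillar collagens and fibril partners, which most members bind or act with, most tested genes were lower in GCA. Of 25 tested, 14 fell, 1 rose and 10 missed the threshold, and 20 had groups that did not overlap. Over all tested genes 6.43% fell, 11.5% rose and 38.5% had such groups. The median log2 fold change was −0.28, where the members had 0.05 and all tested genes 0.01. Loxl2, a collagen cross-linking enzyme, fell to 32.8 ± 1.27 FPKM in GCA, against 42.7 ± 1.61 FPKM in PBS (adjusted p = 0.00266, limma). Col3a1, the chain of collagen III, fell to 171 ± 13.6 FPKM in GCA, against 244 ± 18.3 FPKM in PBS (adjusted p = 0.00361, limma). Fn1 (359 ± 15.2 FPKM in GCA and 487 ± 34.7 FPKM in PBS, adjusted p = 0.00321, limma), which encodes fibronectin, and Pcolce (64.9 ± 2.41 FPKM in GCA and 80.4 ± 1.26 FPKM in PBS, adjusted p = 0.00378, limma), an enhancer of procollagen cleavage, fell as well, and these 4 kept their calls without each library in turn. Of the 14 that fell, 7 kept their call in this way. The other 7 lost it without at least 1 library, with adjusted p up to 0.123 (limma): Lox without GCA replicate 1, Loxl1 without GCA replicate 1 or PBS replicate 3, Col5a1 without GCA replicate 1 or PBS replicate 2, and Col1a2, Col5a2, Col6a1 and Matn2 each without GCA replicate 1, without PBS replicate 2 and without either of at least 2 other libraries. The gene that rose was Col2a1, the chain of cartilage collagen, at 7.29 ± 1.15 FPKM in GCA and 4.16 ± 0.42 FPKM in PBS (adjusted p = 0.00575, limma). Col1a1, which encodes the more abundant chain of collagen I, averaged 1149 ± 53.8 FPKM in GCA and 1333 ± 94.6 FPKM in PBS (adjusted p = 0.0578, limma). The difference between the 2 lists was not tested.

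**Figure D5:**
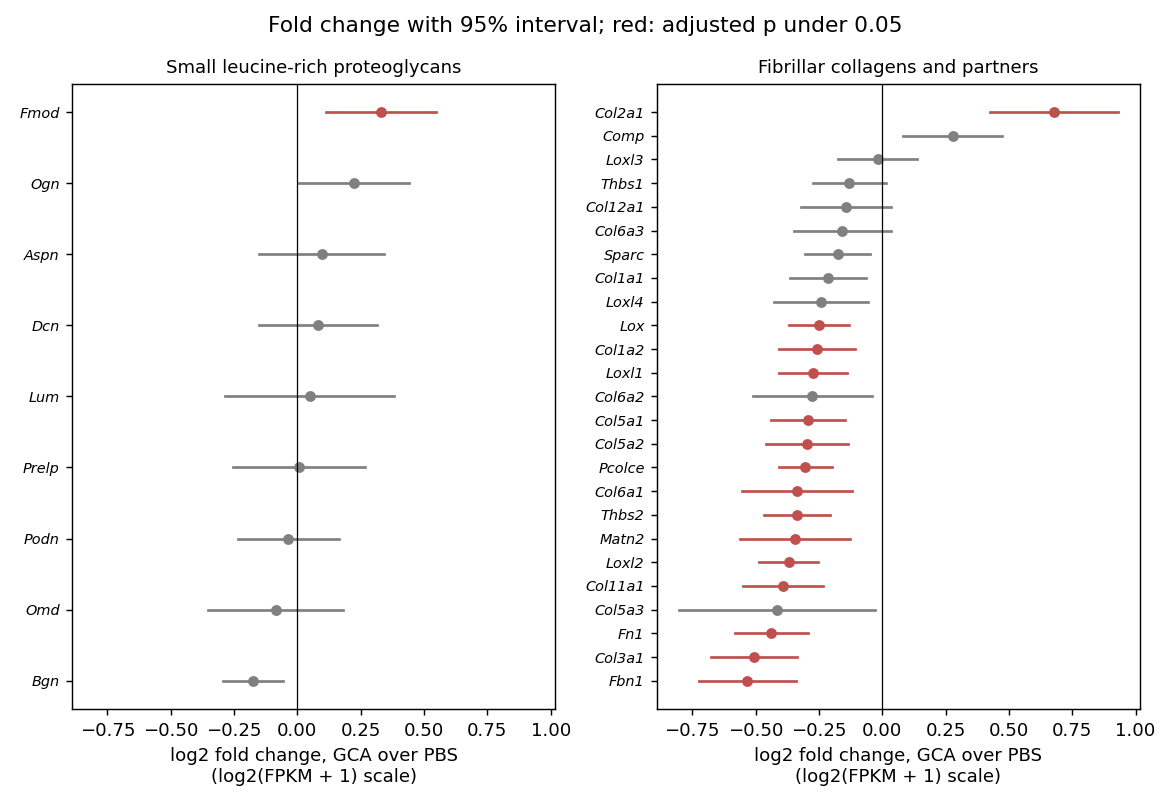
Log2 fold change, GCA over PBS, on the log2(FPKM + 1) scale (horizontal axes) for the 9 members (left panel) and the 25 tested fibrillar collagens and partners (right panel), with lines for the 95% interval from limma and red for an adjusted p under 0.05. Fmod is the 1 red member, 6 of the 9 member intervals cross 0, and 14 of the 15 red genes on the right lie below 0.

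As a percentage of the sum of Col1a1, Col1a2 and Col3a1, the summed members came to 28.8%, 28.0% and 29.3% in GCA and 21.9%, 23.6% and 26.0% in PBS. Every GCA library lay above every PBS library, at 28.7 ± 0.67% in GCA and 23.8 ± 2.09% in PBS (SD, n = 3 each). The collagen sum was 1721, 1834 and 1847 FPKM in GCA and 2339, 2081 and 2039 FPKM in PBS, also without overlap, while the member sums overlapped. This ratio was chosen after the values were seen and is given as a description. It rests on the exon-union lengths as well.

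Among genes for the sugar chains, calls went both ways. Of 24 tested genes of the glycosaminoglycan linker and of chondroitin and dermatan sulfate synthesis, 1 rose, 4 fell and 19 missed the threshold, where 11.5% of all tested genes rose and 6.43% fell. The log2 fold change was negative for 18 of the 24 and positive for 6, with a median of −0.15. The groups did not overlap for 11, where 38.5% of all tested genes had such groups. Csgalnact1, which starts chondroitin chains, fell to 8.17 ± 1.13 FPKM in GCA, against 12.2 ± 0.15 FPKM in PBS (adjusted p = 0.00558, limma), and it alone of the 5 kept its call without each library in turn. The linker enzyme gene B3gat3 rose (22.6 ± 0.51 FPKM in GCA and 19.4 ± 0.73 FPKM in PBS, adjusted p = 0.0212, limma). Papss2 (adjusted p = 0.0233), which makes the sulfate donor, and the sulfotransferase genes Chst7 (0.0314) and Chst12 (0.0353, named after its value was seen) fell. These 4 calls ended without GCA replicate 3 or PBS replicate 1. Those of B3gat3, Chst7 and Chst12 also ended without GCA replicate 1 or PBS replicate 2, those of Chst12 and Papss2 without PBS replicate 3 and that of Papss2 without GCA replicate 2, with adjusted p up to 0.117 (limma). Dse and Chst14, which make dermatan sulfate, averaged 32.4 ± 0.87 FPKM in GCA and 32.3 ± 0.23 FPKM in PBS for Dse, and 17.8 ± 1.08 FPKM in GCA and 17.7 ± 1.40 FPKM in PBS for Chst14. Of 5 tested genes of keratan sulfate synthesis 1 rose and 0 fell, with a median log2 fold change of 0.17. B4galt1, a galactosyltransferase, rose to 72.5 ± 4.98 FPKM in GCA, against 59.6 ± 1.43 FPKM in PBS (adjusted p = 0.0139, limma), which without PBS replicate 2 or 3 reached 0.0563.

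Among 10 tested proteases that cut these proteoglycans, 3 fell and 0 rose, where 6.43% of all tested genes fell and 11.5% rose. The median log2 fold change was −0.06. Bmp1, which removes the propeptide of biglycan, averaged 48.2 ± 2.29 FPKM in GCA and 58.8 ± 3.87 FPKM in PBS (adjusted p = 0.0164, limma, and 0.0600 without GCA replicate 1). Mmp2 averaged 125 ± 2.77 FPKM in GCA and 150 ± 10.5 FPKM in PBS (adjusted p = 0.0179, limma, and up to 0.0656 without GCA replicate 1 or 3). Tll1, a relative of Bmp1, had 1.94 ± 0.33 FPKM in GCA and 2.80 ± 0.12 FPKM in PBS (adjusted p = 0.0256, limma, and up to 0.0833 without GCA replicate 1 or any 1 PBS library). Mmp13, a collagenase that also cuts fibromodulin and biglycan, had 329 ± 16.7 FPKM in GCA and 330 ± 3.70 FPKM in PBS.

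Of 22 tested receptors and growth factors that members bind, 4 rose, 3 fell and 15 missed the threshold (median log2 fold change −0.10). The shares over all tested genes were 11.5% higher and 6.43% lower. P2rx7, an ATP-gated channel that biglycan engages in macrophages, rose to 10.9 ± 0.25 FPKM in GCA, against 7.10 ± 0.33 FPKM in PBS (adjusted p = 0.000597, limma). Its relative P2rx4 rose to 43.0 ± 2.13 FPKM in GCA, against 34.0 ± 0.93 FPKM in PBS (adjusted p = 0.00464, limma). Tlr2 (log2 fold change −0.22, adjusted p = 0.523, limma) and Tlr4 (−0.03, 0.723) missed the threshold. Cd14 averaged 41.3 ± 17.3 FPKM in GCA and 76.3 ± 3.80 FPKM in PBS, without overlap, and missed it too (adjusted p = 0.0852, limma). These 3 were named after their values were seen. Ccn4, which encodes a matricellular protein that binds decorin and biglycan, fell to 13.4 ± 1.40 FPKM in GCA, against 22.2 ± 0.94 FPKM in PBS (adjusted p = 0.000967, limma). Vldlr, a lipoprotein receptor, fell to 1.62 ± 0.12 FPKM in GCA, against 2.69 ± 0.23 FPKM in PBS (adjusted p = 0.00465, limma). Tgfb1, a ligand of decorin and biglycan named after its value was seen, averaged 44.2 ± 1.67 FPKM in GCA and 37.4 ± 0.67 FPKM in PBS (adjusted p = 0.0118, limma, and 0.0523 without PBS replicate 3). Tgfbr2, a TGF-β receptor, also rose (adjusted p = 0.0123, and 0.0524 without PBS replicate 2) and Lrp1, which takes up decorin, fell (adjusted p = 0.00865, limma).

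Proteoglycans outside the family moved both ways. Of 14 tested, 1 rose, 5 fell and 8 missed the threshold (median log2 fold change −0.18), where 11.5% of all tested genes rose and 6.43% fell. Sdc3, a syndecan best known from the nervous system, rose to 125 ± 2.84 FPKM in GCA, against 84.1 ± 1.86 FPKM in PBS (adjusted p = 0.000330, limma). The cell surface proteoglycan gene Gpc6 fell to 3.54 ± 0.18 FPKM in GCA, against 5.75 ± 0.27 FPKM in PBS (adjusted p = 0.00102, limma). Sdc1 fell to 38.4 ± 0.93 FPKM in GCA, against 51.2 ± 2.81 FPKM in PBS (adjusted p = 0.00208, limma), and Hspg2, which encodes perlecan, to 32.7 ± 1.18 FPKM in GCA, against 42.0 ± 3.05 FPKM in PBS (adjusted p = 0.00713, limma). Vcan (adjusted p = 0.0148), which encodes versican, and Srgn (0.0354), which encodes serglycin, were the others that fell, and the Srgn call ended without GCA replicate 1 or 3 or PBS replicate 2 or 3 (up to 0.113, limma).

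Markers of stromal and related cells moved both ways. For comparison with the counts below, 11.5% of all tested genes rose and 6.43% fell. Of 15 tested stromal markers, 1 rose (Vcam1) and 4 fell (Col1a2, Col3a1, Pdgfrb and Prrx1). The summed level of the stromal list was 2631 to 2829 FPKM in GCA and 2986 to 3233 FPKM in PBS. Most of this sum was Col1a1, Col1a2 and Col3a1, at 1721 to 1847 FPKM in GCA and 2039 to 2339 FPKM in PBS. It therefore does not stand for the other stromal markers, whose sum is not given here. The Col1a2 call (adjusted p = 0.0289) ended without any 1 GCA library or without PBS replicate 2 (up to 0.0915, limma), and the other 4 held without each library. Pdgfrb, a receptor of stromal cells, fell to 22.0 ± 1.21 FPKM in GCA, against 29.3 ± 2.70 FPKM in PBS (adjusted p = 0.00847, limma). Lepr, which marks marrow stroma in mice, lay below the filter at 0.260 FPKM in GCA and 0.457 FPKM in PBS. Of 6 tested tendon and cartilage markers, 1 rose (Col2a1) and 0 fell, and the sum was 30.2 to 40.6 FPKM in GCA and 25.4 to 35.7 FPKM in PBS. Scx, the factor of tendon cells, had 2.89 ± 0.52 FPKM in GCA and 2.48 ± 0.31 FPKM in PBS (adjusted p = 0.379, limma), Tnmd 1.19 ± 0.40 FPKM in GCA and 1.88 ± 0.13 FPKM in PBS (adjusted p = 0.0666, limma) and Sox9 2.62 ± 0.27 FPKM in GCA and 2.95 ± 0.42 FPKM in PBS (adjusted p = 0.403, limma). Of 9 tested osteoblast markers, 3 rose (Sp7, Ibsp and Pth1r) and 2 fell (Spp1 and Bglap2), with a sum of 1752 to 2071 FPKM in GCA and 3756 to 4639 FPKM in PBS. The median log2 fold change of the 9 tested was −0.03 (lowest −1.23, 4 positive and 5 negative), so the sum does not stand for the list as a whole. The calls of Sp7 and Spp1 held without each library, and those of Ibsp, Pth1r and Bglap2 did not (adjusted p up to 0.117, limma). Ibsp lost its call without GCA replicate 2 or PBS replicate 1 or 3, Pth1r without GCA replicate 1 or 2 or any 1 PBS library, and Bglap2 without any of the 6. Of 12 listed endothelial and pericyte markers 4 were tested, and Acta2 and Notch3 fell (Acta2 not without GCA replicate 1 or any 1 PBS library, up to 0.0836, limma). The list summed to 384 to 479 FPKM in GCA and 524 to 561 FPKM in PBS. Its other markers lay below the filter, so this sum does not stand for the list as a whole. None of these markers was at 0 in all libraries, and the part of such cells in the values of the 9 genes was not tested.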

How the data were processed

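Each deposited file holds 1 value per Ensembl gene for 1 library. The unit is not named by the labels. The values were identified as FPKM deposited by the authors: times the exon-union length of GENCODE M21, 91.0% of the nonzero matched values were whole fragments within 0.02 fragment, all values of the 9 genes among them. The submitters' processing notes name Bowtie 0.12.2, mm8 and mm9, without a role for any of them, and the tool and settings that counted fragments are not known here. Genes were placed by Ensembl identifier on GRCm38 through GENCODE M21, whose lengths the values fit. Of the identifiers, 27204 matched and 59 did not.

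All 11984 genes whose mean reached 1 FPKM entered a limma-trend fit on log2(FPKM + 1) with treatment as its sole term and robust moderation (limma 3.58.1, R 4.3.3). Its two-sided p-values were adjusted by Benjamini-Hochberg over all of them, and the threshold was 0.05. Fold changes on that scale understate those of low genes. Ratios were tested by exact permutation (scipy 1.17.1), and sequences were handled with Python 3.11.15 and Biopython 1.88. The 9 members and all lists were chosen with earlier results of these data known. The text names every member, the called genes of each list (the 4 of smallest p where more passed), the defining markers and the 3 genes nearest to each member, of which 1 is not reported here. Further genes (Chst12, Dse, Chst14, Mmp13, Tgfb1, Tgfbr2, Lrp1, Tlr2, Tlr4, Cd14, Vcan, Srgn, Bglap2, Col1a2, Col5a1, Col5a2, Col6a1, Lox, Loxl1, Matn2, Lepr, Podnl1, Xylt1 and Xylt2) were named after their values were seen. The alternatives were the replicate block, other normalizations, filters, pseudocounts and thresholds, protein-coding genes alone, limma-voom on recovered fragments and leaving out each library.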

Additional observations from a re-analysis of the deposited data

How the results depend on the processing

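The count of members past the threshold, 1 as reported, was 2 under the replicate block (Fmod, and Ogn with an adjusted p of 0.0280), with a filter of 5 FPKM, with protein-coding genes alone, with limma-voom and at a threshold of 0.10, and 0 after quantile normalization, with a filter of 0.1 FPKM, with no filter, without trend and robust moderation and at a threshold of 0.01. Leaving out 1 library gave 0 to 1. After median centring the member called was Bgn, and without PBS replicate 3 it was Ogn. The count of all genes called, 2151 as reported, was 1075 with no filter, 837 at a threshold of 0.01, 2094 with the replicate block, 2225 after quantile normalization, 2451 with protein-coding genes alone, 2716 with limma-voom, 3161 at a threshold of 0.10 and 1225 to 2078 with 1 library left out.

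Fmod, Bgn, Ogn, Aspn and Omd kept their direction under all 18 alternatives. With 1 library left out, the log2 fold change reversed for Dcn (−0.0083 to 0.15), Lum (−0.088 to 0.15), Podn (−0.097 to 0.020) and Prelp (−0.077 to 0.14). Prelp also reversed after quantile normalization (−0.021) and median centring (−0.0063). Of the neighbour ratios, Dcn to Lum reversed with 1 library left out (−0.013 to 0.093). The cause was not tested. Same-numbered libraries deviated together by correlations of 0.08, 0.03 and 0.07, so the numbers were not taken to pair samples, though each library correlated best with its own number. The depth limits Podn, Lum and Prelp most.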

Other observations

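Xylt1, which starts the linker that joins chondroitin, dermatan and heparan sulfate chains to core proteins, lay below the filter on its mean and was not tested. It averaged 0.616 ± 0.088 FPKM in GCA and 1.32 ± 0.10 FPKM in PBS (SD, n = 3 each), without overlap between groups. Of all tested genes, 38.5% had such groups. Xylt2, its relative in the same list, was far higher, at 29.0 ± 6.51 FPKM in GCA and 35.5 ± 2.32 FPKM in PBS. The groups of Xylt2 overlapped, and it missed the threshold (log2 fold change −0.30, adjusted p = 0.234, limma). Both genes were picked after their values were seen.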
